A study of Mus musculus with 6 samples.

Results

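MHC class I molecules and the proteins that load them with peptide were read in liver by 25 probe sets, out of 45037 in the whole table. These were all the probe sets that the array's annotation pairs with a single gene from a list of 10, namely H2-K1, H2-D1, H2-Q10, H2-T23, H2-T24, H2-M3, B2m, Tap1, Tap2 and Tapbp. Of the 10 genes, 9 had at least 1 such probe set. H2-T23 had none of its own. Genes with a probe set of their own numbered 18193 over the whole table. The samples were livers of 6 untreated female mice aged 8 weeks, 3 of the inbred strain NZB/BinJ (NZB) and 3 of the inbred strain SM/J (SM), with 1 array per mouse. All were weaned at 3 weeks, ate chow, went without food for 4 hours and had their livers perfused with 50 mL of saline, and no mouse carried a named mutation, transgene or drug.

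A class I molecule is a polymorphic heavy chain bound to the invariant light chain β2-microglobulin, and it shows peptides made inside the cell to CD8+ T cells and NK cells. The peptides are cut by the proteasome, pumped into the endoplasmic reticulum by the TAP transporter and placed on the heavy chain with the help of tapasin. Heavy chain genes lie in the H2 complex, where inbred strains carry different haplotypes. NZB is known to carry an H2d-type haplotype and SM the H2v haplotype. Such haplotypes differ in heavy chain sequence and can differ in the number of D-region genes, and an array designed on some alleles can bind RNA of others more weakly or more strongly. Probe sets are therefore given singly, by their names, in which _x_at marks probes that can also bind RNA of other genes.

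The promoters of H2-K1, H2-D1, H2-Q10 and B2m are shown because they drive the heavy chains and the light chain whose readings, given below, went different ways. They come from RefSeq, build GRCm38.p6 of the strain C57BL/6J, and are not the sequences of NZB or SM. Of the 10 genes, 8 had a promoter in that set; each window spans 300 bases around an annotated start. Capitals mark 5 motifs searched on both strands, none of which overlapped another in these windows. They are the NF-κB site GGGGATTCC, the interferon response sequence GTTTCACTT, the CRE half-site TGACG, the CCAAT box and the TATA box TATAAA. H2-K1 has more than 1 annotated start, and the upstream one is shown.
H2-K1, chr17:34000298-34000597, minus strand: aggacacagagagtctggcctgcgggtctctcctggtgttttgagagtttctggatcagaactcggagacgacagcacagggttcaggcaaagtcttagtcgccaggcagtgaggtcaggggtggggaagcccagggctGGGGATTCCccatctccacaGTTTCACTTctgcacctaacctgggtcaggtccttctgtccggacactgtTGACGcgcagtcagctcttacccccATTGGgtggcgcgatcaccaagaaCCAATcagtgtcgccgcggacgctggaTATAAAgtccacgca
H2-D1, chr17:35262844-35263143, plus strand: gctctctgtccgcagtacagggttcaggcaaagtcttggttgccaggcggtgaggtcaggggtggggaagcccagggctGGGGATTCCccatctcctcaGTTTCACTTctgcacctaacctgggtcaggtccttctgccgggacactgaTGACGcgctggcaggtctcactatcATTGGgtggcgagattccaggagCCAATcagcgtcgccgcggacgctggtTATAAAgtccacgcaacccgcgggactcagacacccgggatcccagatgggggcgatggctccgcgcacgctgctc
H2-Q10, chr17:35469839-35470138, plus strand: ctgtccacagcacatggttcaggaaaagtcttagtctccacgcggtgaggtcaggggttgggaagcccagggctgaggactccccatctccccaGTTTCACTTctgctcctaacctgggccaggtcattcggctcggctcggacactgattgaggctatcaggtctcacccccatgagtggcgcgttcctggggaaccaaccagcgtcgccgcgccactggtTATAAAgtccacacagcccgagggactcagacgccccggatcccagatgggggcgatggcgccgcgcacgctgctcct
B2m, chr2:122147437-122147736, plus strand: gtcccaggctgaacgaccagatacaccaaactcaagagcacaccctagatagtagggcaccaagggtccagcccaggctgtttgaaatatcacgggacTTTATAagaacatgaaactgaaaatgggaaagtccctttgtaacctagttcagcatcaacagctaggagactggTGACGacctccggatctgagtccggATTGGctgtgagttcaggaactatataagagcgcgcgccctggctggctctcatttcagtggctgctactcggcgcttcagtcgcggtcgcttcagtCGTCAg
Only these exact letters were searched, so a window without a match may still hold another form of a site. H2-K1 and H2-D1 held all 5 motifs. H2-Q10 held the interferon response sequence and the TATA box only, and B2m held the CRE half-site, the CCAAT box and a reverse match to TATAAA. Of all 32851 promoter windows, 0.25% held the NF-κB letters and 0.399% the interferon response letters, against 20.8% for TGACG, 37.4% for CCAAT and 13.6% for TATAAA. In local alignments the promoters of H2-K1 and H2-D1 were 90.7% identical over 227 aligned bases, and those of H2-D1 and H2-Q10 87.9% identical over 290 aligned bases.

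All values are log2 expression, and differences are NZB minus SM, given with the standard error (SE) that limma fitted over all probe sets. Calls rest on a Benjamini-Hochberg adjusted p under 0.05, taken over the whole table. Of all 45037 probe sets, 14.8% were called (6.09% higher in NZB and 8.69% lower). Background is taken as 5.67, which no array exceeded on any probe set of the Y-linked genes Eif2s3y, Kdm5d and Uty, whose RNA females lack. Array medians lay between 6.60 and 6.66. All 8 hepatocyte markers examined, among them Alb, read above background. SM replicate 2 stood apart in Xist, the RNA of the inactive X chromosome. The probe set 1436936_s_at of Xist read 12.66, 12.63 and 12.60 in NZB replicates 1 to 3, against 12.84, 7.32 and 12.91 in SM replicates 1 to 3. Calls are therefore also given without that array. With 3 arrays per strain, precision is limited by their number. Mice of a strain are biological replicates by their labels.

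Of the 25 class I and peptide-loading probe sets, 5 read higher in NZB and 8 lower, while the other 12 were not called (14.8% of the whole table was called, 6.09% higher and 8.69% lower). Without SM replicate 2 the counts were 5 and 7, the probe set lost being that of H2-T24. The calls fell on every probe set of H2-K1, on H2-Q10 and H2-T24 (all lower), on some of H2-D1 (in both directions), and on 1 each of Tap1 and Tapbp (higher). A called difference of at least 2-fold was read by 6 of the 25, all from heavy chain genes, where 1.25% of the whole table had one. Of the 12 probe sets marked _x_at, 3 were higher and 5 lower, where 19.7% of all probe sets marked _s_at or _x_at were called (8.85% higher and 10.8% lower). The median difference over the 25 was -0.05, against 0.02 over all probe sets, and the median size without sign was 0.27, against 0.10. Bulk liver cannot tell fewer cells of a type from less RNA per cell.

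**Figure D1:**
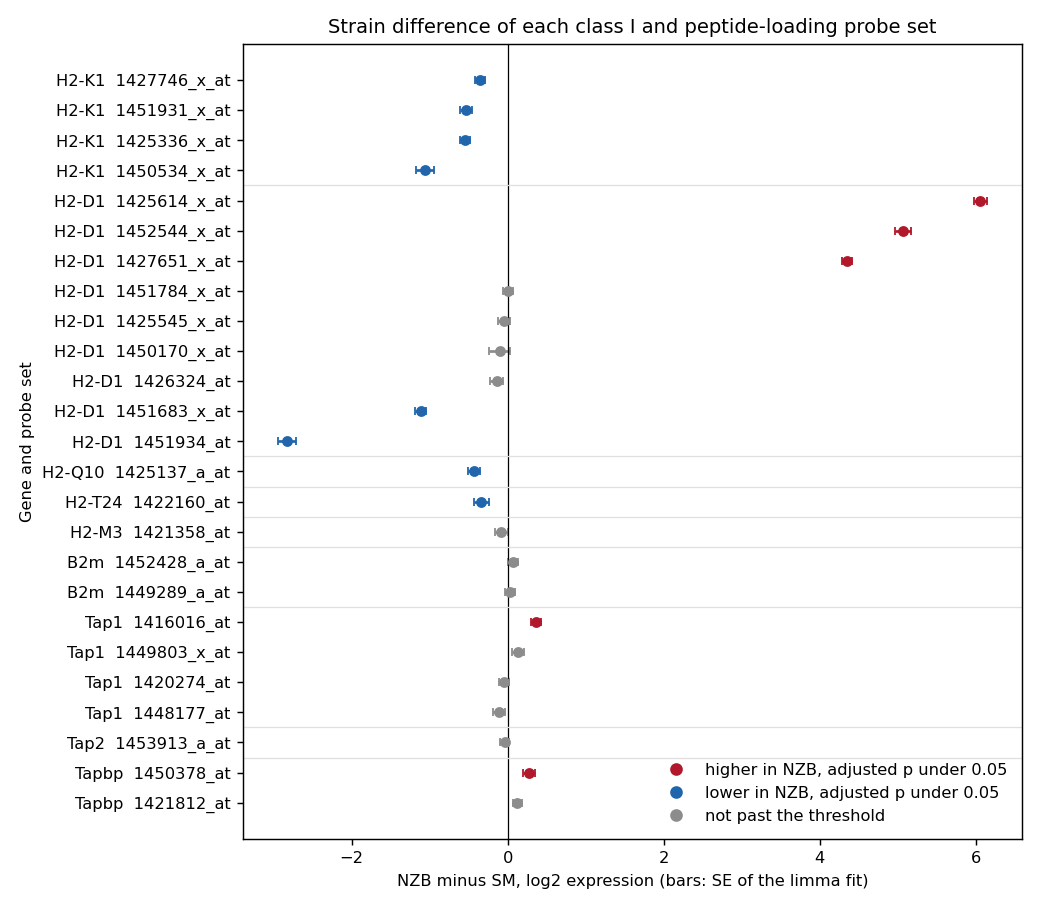
NZB minus SM difference in log2 expression (x axis) for each of the 25 class I and peptide-loading probe sets (rows), with bars for the limma standard error. H2-D1 probe sets run from -2.82 to 6.06, while those of every other gene lie between -1.06 and 0.36.

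H2-D1 is a classical heavy chain gene. Its 9 probe sets gave 3 different answers: 3 were far higher in NZB, 2 read lower, and for 4 no call was made. The probe set 1425614_x_at read 12.40, 12.55 and 12.48 in NZB mice, against 6.59, 6.36 and 6.30 in SM mice. All NZB arrays were high, all SM arrays were within about 1 unit of background, and the difference was 6.06 (SE 0.086, limma adjusted p = 2.8e-09), a 66.7-fold higher reading in NZB. This was the largest difference in the NZB direction among all 45037 probe sets. The probe set 1452544_x_at of H2-D1 read 12.48, 12.55 and 12.45 in NZB mice, against 7.60, 7.50 and 7.18 in SM mice, and was 33.5-fold higher (5.07, SE 0.104, limma adjusted p = 3.1e-08). The probe set 1427651_x_at of H2-D1 read 11.71, 11.83 and 11.74 in NZB mice, against 7.48, 7.40 and 7.35 in SM mice, and was 20.4-fold higher (4.35, SE 0.066, limma adjusted p = 2.8e-09). In order of size these ranked 2nd and 5th among all differences in the NZB direction, and the spread within either strain was small beside them.

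The opposite was read by another pair of H2-D1 probe sets. The probe set 1451934_at read 5.02, 5.27 and 5.31 in NZB mice, all under background, against 8.03, 7.81 and 8.23 in SM mice. Its difference was -2.82 (SE 0.11, limma adjusted p = 1.5e-06), so that against background NZB mice read at least 5.11-fold lower. The probe set 1451683_x_at of H2-D1 read 10.39, 10.26 and 10.41 in NZB mice, against 11.46, 11.43 and 11.52 in SM mice, and was 2.17-fold lower (-1.12, SE 0.066, limma adjusted p = 1.7e-05). The strains did not overlap on either.

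On the remaining 4 H2-D1 probe sets the strains overlapped. The brightest of the 9, 1425545_x_at, read 12.85, 13.00 and 12.96 in NZB mice, against 12.95, 12.90 and 13.10 in SM mice, a difference of -0.05 (SE 0.074, limma adjusted p = 0.73). The probe set 1451784_x_at differed by 0.0021 (SE 0.062), 1450170_x_at by -0.10 (SE 0.13) and 1426324_at by -0.14 (SE 0.086), with limma adjusted p between 0.32 and 0.99. A reading of H2-D1 through its brightest probe set alone thus shows no call in either direction.

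**Figure D2:**
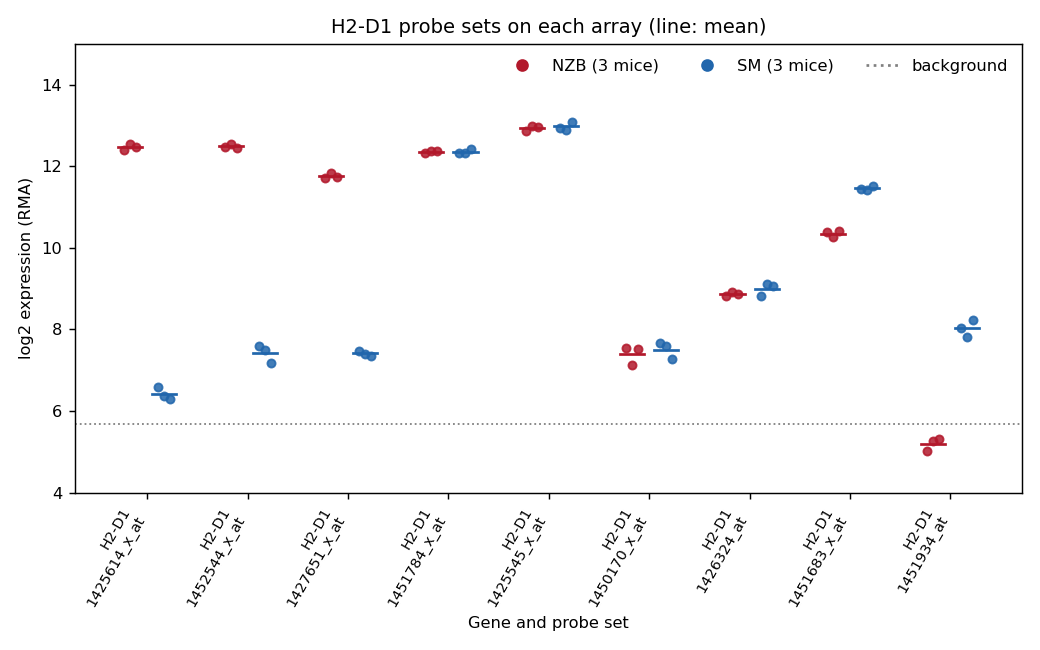
log2 expression (y axis) of the 9 H2-D1 probe sets (x axis) on each array, with NZB mice left of SM mice, a line at each mean of 3 mice and a dotted line at background, 5.67. The 3 leftmost probe sets are between 11.71 and 12.55 in NZB mice and between 6.30 and 7.60 in SM mice, and the rightmost is under background in NZB mice only.

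The strain differences of the 9 H2-D1 probe sets ranged over 8.88 as fitted. With readings under background raised to background, which makes it a lower bound, the range was at least 8.41. On that scale it was the widest among 9010 genes with several probe sets of their own. The next was 5.55, for Ctse, and the median was 0.17. These ranges are a description, with no test. Of the 9010 genes, 0.999% had probe sets called in both directions. Of the 19 with at least 9 probe sets, 3 did, H2-D1 among them, and the median range of the 19 was 0.44 on the same scale. Whether allele sequence, the number of D-region genes or transcript level accounts for the readings of H2-D1 was not tested.

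H2-K1, the other classical heavy chain gene read here, was lower in NZB on all 4 of its probe sets, all of them of the _x_at kind. The brightest, 1425336_x_at, read 12.94, 13.05 and 12.93 in NZB mice, against 13.54, 13.47 and 13.57 in SM mice, a 1.47-fold lower reading (-0.55, SE 0.064, limma adjusted p = 0.00071). The probe set 1450534_x_at of H2-K1 read 9.17, 9.03 and 8.94 in NZB mice, against 9.87, 10.37 and 10.08 in SM mice, and was 2.08-fold lower (-1.06, SE 0.12, limma adjusted p = 0.00061). The strains were apart on each of these H2-K1 probe sets, though the dimmer one varied more among SM mice.

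The probe set 1451931_x_at of H2-K1 read 11.75, 11.80 and 11.93 in NZB mice, against 12.42, 12.27 and 12.39 in SM mice (-0.53, SE 0.074, limma adjusted p = 0.0018). The last of the 4, 1427746_x_at, read 12.05, 12.16 and 12.08 in NZB mice, against 12.44, 12.45 and 12.46 in SM mice (-0.35, SE 0.060, limma adjusted p = 0.0051). Every NZB array was below every SM array on all 4 probe sets of H2-K1, and all 4 stayed called without SM replicate 2. Their differences ranged over 0.71, so the size of the strain difference in H2-K1 depends on the probe set even where its direction does not.

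H2-Q10 encodes a class I heavy chain that mouse liver secretes into blood. Its probe set 1425137_a_at read 13.24, 13.24 and 13.27 in NZB mice, against 13.74, 13.76 and 13.55 in SM mice. NZB mice were closely grouped and wholly below SM mice, a 1.35-fold lower reading (-0.43, SE 0.072, limma adjusted p = 0.0045), which was -0.39 without SM replicate 2 (limma adjusted p = 0.023).

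H2-T24 and H2-M3 are non-classical heavy chain genes, and H2-M3 presents peptides that begin with N-formylmethionine. The H2-T24 probe set 1422160_at read 5.74, 5.79 and 5.74 in NZB mice, against 5.87, 6.22 and 6.20 in SM mice. These readings lay just above background, and the difference of -0.34 (SE 0.095, limma adjusted p = 0.043) lost its call without any array but SM replicate 1 (limma adjusted p = 0.0960 to 0.146, and 0.146 without SM replicate 2). The H2-M3 probe set 1421358_at read 7.67, 7.88 and 7.92 in NZB mice, against 7.83, 7.89 and 8.01 in SM mice, with overlap between strains (-0.08, SE 0.083, limma adjusted p = 0.55).

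H2-T23 encodes Qa-1, a non-classical heavy chain that displays leader peptides of other class I molecules to NK cell receptors. Each of the 2 probe sets that the annotation pairs with H2-T23 is also paired with the pseudogene H2-T-ps, so neither can be given to the gene. One of them, 1449556_at, read 11.05, 10.94 and 11.10 in NZB mice, against 12.19, 12.33 and 12.44 in SM mice (-1.29, SE 0.080, limma adjusted p = 2.1e-05), and was 2.45-fold lower with no overlap. The other, 1419658_at, was under background on all arrays and differed by 0.05 (limma adjusted p = 0.68). A further 3 probe sets were paired with H2-K1 or H2-D1 together with other genes. Of these, 1424948_x_at, shared by H2-K1 and H2-D1, was 1.55-fold lower in NZB (-0.63, SE 0.060, limma adjusted p = 0.00024), and the others did not pass.

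B2m encodes the light chain, which class I heavy chains generally need to reach the cell surface. The probe set 1449289_a_at read 13.93, 13.89 and 13.94 in NZB mice, against 13.89, 13.98 and 13.81 in SM mice, a difference of 0.03 (SE 0.066, limma adjusted p = 0.80). The probe set 1452428_a_at of B2m read 13.88, 13.89 and 13.89 in NZB mice, against 13.82, 13.89 and 13.73 in SM mice, a difference of 0.07 (SE 0.064, limma adjusted p = 0.49). On both the strains overlapped. No difference in B2m larger than the spread between mice was detected.

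Among the loading genes, Tap1 and Tap2 together encode the peptide transporter. The brightest Tap1 probe set, 1416016_at, read 8.27, 8.13 and 8.22 in NZB mice, against 7.84, 7.89 and 7.81 in SM mice. NZB mice were wholly above SM mice, by 1.28-fold (0.36, SE 0.064, limma adjusted p = 0.0062, and 0.0193 without SM replicate 2). The other 3 probe sets of Tap1 were dim and not called. Of these, 1420274_at was under background on all arrays, 1449803_x_at differed by 0.13 (SE 0.076) and 1448177_at by -0.11 (SE 0.075). The Tap2 probe set 1453913_a_at read 8.64, 8.67 and 8.54 in NZB mice, against 8.64, 8.64 and 8.70 in SM mice, and the strains overlapped (-0.04, SE 0.063, limma adjusted p = 0.72).

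Tapbp encodes tapasin, which bridges the transporter and the empty heavy chain. Its brighter probe set, 1421812_at, read 10.81, 10.79 and 10.83 in NZB mice, against 10.72, 10.68 and 10.67 in SM mice. NZB mice were above SM mice on every array, yet the difference of 0.12 (SE 0.058, limma adjusted p = 0.20) did not pass. The probe set 1450378_at of Tapbp read 9.62, 9.64 and 9.62 in NZB mice, against 9.19, 9.48 and 9.39 in SM mice, and was 1.21-fold higher (0.27, SE 0.079, limma adjusted p = 0.0499). That call ended without any array but SM replicate 2 (limma adjusted p = 0.0708 to 0.129, and 0.0426 without SM replicate 2).

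**Figure D3:**
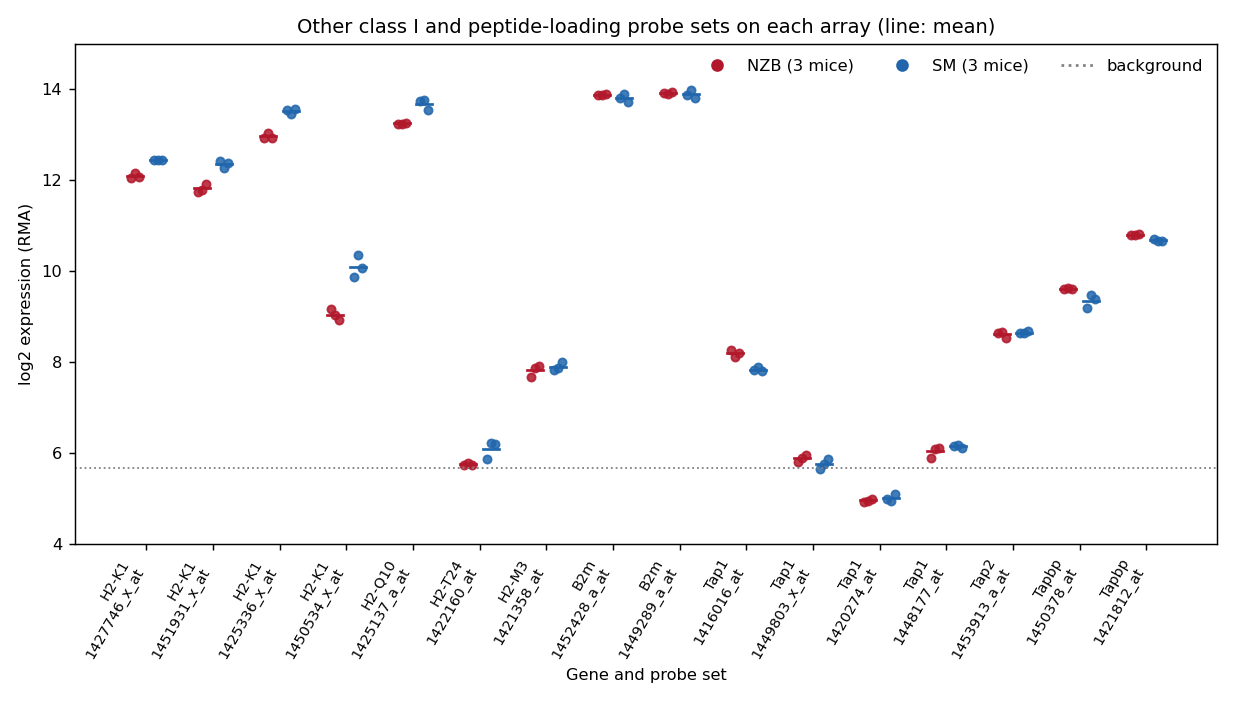
log2 expression (y axis) of the 16 class I and peptide-loading probe sets of genes other than H2-D1 (x axis) on each array, with NZB mice left of SM mice, a line at each mean of 3 mice and a dotted line at background, 5.67. NZB mice lie below SM mice on all 4 H2-K1 probe sets and on H2-Q10, and the strains overlap on both B2m probe sets.

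The arrays of the strains did not overlap for 14 of the 25 probe sets, where 34.3% of the whole table showed this. These were the 13 called ones and 1421812_at of Tapbp. With 1 probe set per gene, the brightest, H2-K1, H2-Q10 and H2-T24 were lower, Tap1 was higher, and H2-D1, H2-M3, B2m, Tap2 and Tapbp did not pass.

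Other genes of the pathway were read through the brightest probe set of each gene, for which 18.3% of all 18193 genes were called (7.09% higher and 11.2% lower in NZB). The immunoproteasome cuts peptides with ends that suit class I binding, and of 4 measured genes of it and its activator 3 were higher in NZB, with a median difference of 0.29. Psmb9 was 1.38-fold higher (0.47, SE 0.076, limma adjusted p = 0.0041) and Psmb8 was 1.26-fold higher (0.33, SE 0.080, limma adjusted p = 0.025). The call of Psmb8 ended when any of SM replicates 1 and 3 and NZB replicates 2 and 3 was left out (limma adjusted p = 0.0524 to 0.0983). The third was Psmb10 (0.24, SE 0.069, limma adjusted p = 0.045). Without SM replicate 2 the higher genes numbered 2, and the lowest count without 1 array was 1.

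Of 10 measured genes of peptide trimming and folding in the endoplasmic reticulum, 4 were higher in NZB and 1 was lower, with a median difference of 0.13. Uggt1, a sensor of glycoprotein folding that also acts on class I molecules, was 1.33-fold higher (0.41, SE 0.064, limma adjusted p = 0.0033). Pdia3, the oxidoreductase of the loading complex, was 1.26-fold higher (0.34, SE 0.062, limma adjusted p = 0.0072). The lectin chaperone genes Calr and Canx were the other higher members. Erap1, the aminopeptidase that trims peptides to their final length, was 1.27-fold lower (-0.34, SE 0.078, limma adjusted p = 0.020), a call lost after quantile normalization (0.0631) and on leaving out NZB replicate 3 (0.0598) or SM replicate 2 (0.0707).

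Of 20 measured regulators of class I transcription, 1 was higher in NZB and 4 were lower, with a median difference of -0.11. Nlrc5, the transactivator of class I genes, was 1.68-fold lower (-0.75, SE 0.099, limma adjusted p = 0.0014, and 0.0067 without SM replicate 2). Jak1, a kinase of interferon receptors, was 1.26-fold lower (-0.34, SE 0.060, limma adjusted p = 0.0062). The remaining lower genes were Ifnar1 and Nfyc, and without SM replicate 2 the lower genes numbered 2. Irf1, an interferon-induced transcription factor, was 1.28-fold higher (0.35, SE 0.085, limma adjusted p = 0.024), a call that ended when replicate 2 or 3 of either strain was left out (0.0606 to 0.0936) or with the replicate number as a block (0.0521). Of a list of 21 other H2 class I genes, only 5 had a probe set of their own (H2-Q2, H2-T3, H2-Bl, H2-M9 and H2-M10.1). These 5 had limma adjusted p from 0.054 to 0.79 and none was called, with H2-Q2 under background. The other genes of the list were not assessed. That list does not hold H2-Q5, a further class I heavy chain gene, which was added after its values were seen. The probe set 1430802_at of H2-Q5 read 9.005, 9.13 and 8.97 in NZB mice, against 9.58, 10.18 and 9.84 in SM mice. NZB mice were wholly below SM mice, a 1.78-fold lower reading (-0.83, SE 0.13, limma adjusted p = 0.0037, and 0.0055 without SM replicate 2). The dimmer H2-Q5 probe set, 1450582_at, was not called (-0.11, SE 0.060, limma adjusted p = 0.28).

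Cells other than hepatocytes also carry class I molecules, and markers of some of them differed between strains. As above, each gene was read through its brightest probe set, for which 18.3% of all genes were called (7.09% higher and 11.2% lower), and several of these counts lie near that share. Of 8 Kupffer cell markers, 5 were higher in NZB (Cd5l, Adgre1, Vsig4, Csf1r and C1qa, by 0.40 to 0.75) and 1 was lower. The lower one was Marco (-0.66), a call lost without NZB replicate 1 or 3, while Clec4f (0.03) and Timd4 (0.12) were not called. The summed level of the 8 on the linear scale was 9103 to 10800.5 in NZB mice and 6879 to 7649 in SM mice. Of 7 plasma cell markers 3 were higher, Ighm (4.35), Jchain (4.28) and Derl3 (0.59), and Tnfrsf17 was under background. Ighm has 11 probe sets of its own, whose strain differences ranged over 4.42, so its value depends on the probe set. The sum of the 7 markers was 14873 to 21309.7 in NZB mice and 8283 to 9185 in SM mice. The brightest of the 7 in SM mice were Xbp1 and Sdc1 (means 12.20 and 11.68), which were not called (0.13 and 0.04). Of 6 B cell markers 1 was higher, with a sum of 469 to 484 in NZB mice and 405 to 419 in SM mice. Of 7 T cell markers 3 were higher, with a sum of 819 to 867 in NZB mice and 717 to 769 in SM mice. Cd3g, Cd2 and Cd28 were under background, and Cd3g is among the 3 counted as higher. Of 7 NK cell markers 2 were higher, with a sum of 599 to 605 in NZB mice and 521 to 567 in SM mice. Klrd1, which is among the 2 counted as higher, was under background. The sums of these 5 lists were higher in NZB mice with no overlap. Without SM replicate 2 the higher markers numbered 4 for Kupffer cells, 2 for plasma cells, 1 for T cells and 0 for NK cells. The class II genes, which antigen-presenting cells make, were higher in 5 of 11 cases (3 without SM replicate 2), among them H2-Aa (1.41, SE 0.22, limma adjusted p = 0.0031) and Cd74 (1.39, SE 0.20, limma adjusted p = 0.0025). H2-Aa and H2-Ea lie in the H2 complex. Above background, probe sets of H2-Aa differed by 0.70 to 1.41 and those of H2-Ea by 0.27 to 1.19. Whether alleles change the binding of class II probe sets was not tested. Of 7 neutrophil markers 3 were higher, with a sum of 1130.4 to 1285 in NZB mice and 940.3 to 983 in SM mice. Of 7 dendritic cell markers none was called in limma, with a sum of 943 to 974 in NZB mice and 866 to 919 in SM mice, and Xcr1 was under background. These sums too were higher in NZB mice with no overlap. Of 8 hepatocyte markers 2 were lower (1 without SM replicate 2), with a sum of 142814 to 148555 in NZB mice and 151815 to 154538 in SM mice. The lower ones were Tat (-0.73) and Hnf4a (-0.38). Differences of Alb, Ttr, Apoa1, Apob, Cps1 and Serpina1c lay between -0.12 and 0.06 and were not called, so the sum does not show a fall across the list. Of 8 stellate cell markers 1 was lower, with a sum of 4162 to 5613 in NZB mice and 5809 to 6590.2 in SM mice. The lower one was Rgs5 (-1.01). Dcn, Lrat, Colec11 and Reln differed by -0.37 to -0.15, and Des, Col1a1 and Col3a1 by 0.19 to 0.49, and none of these was called. The stellate sum thus does not show a fall across its list. Of 3 erythroid markers 2 were lower, with a sum of 424 to 578 in NZB mice and 719 to 1197 in SM mice, and Hba-a1 was under background. The hepatocyte, stellate and erythroid sums were lower in NZB mice with no overlap. For sinusoidal endothelium 2 of 8 were higher and 2 lower, for cholangiocytes none of 5 was called in limma, and the sums of both overlapped between strains. The part of these cells in the readings of H2-D1, Tap1 and the immunoproteasome genes was not tested.

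All the class I and peptide-loading genes read here but B2m lie in the H2 segment of chromosome 17, which in RefSeq order runs from Tapbp to H2-M3. It held 223 probe sets of 131 genes, 23 of them class I or peptide-loading probe sets. Of the 200 others in the segment 26.5% were called (33 higher and 20 lower in NZB), against 15.9% of the 1278 probe sets elsewhere on chromosome 17. A called difference of at least 2-fold was read by 1.25% of all probe sets, and by 13 of the 1278 elsewhere on chromosome 17. In the segment 12 of the 223 probe sets had one, of which 6 belonged to H2-K1 and H2-D1. All other probe sets of the segment lay between -0.83, for the class I gene H2-Q5, and 1.45.

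**Figure D4:**
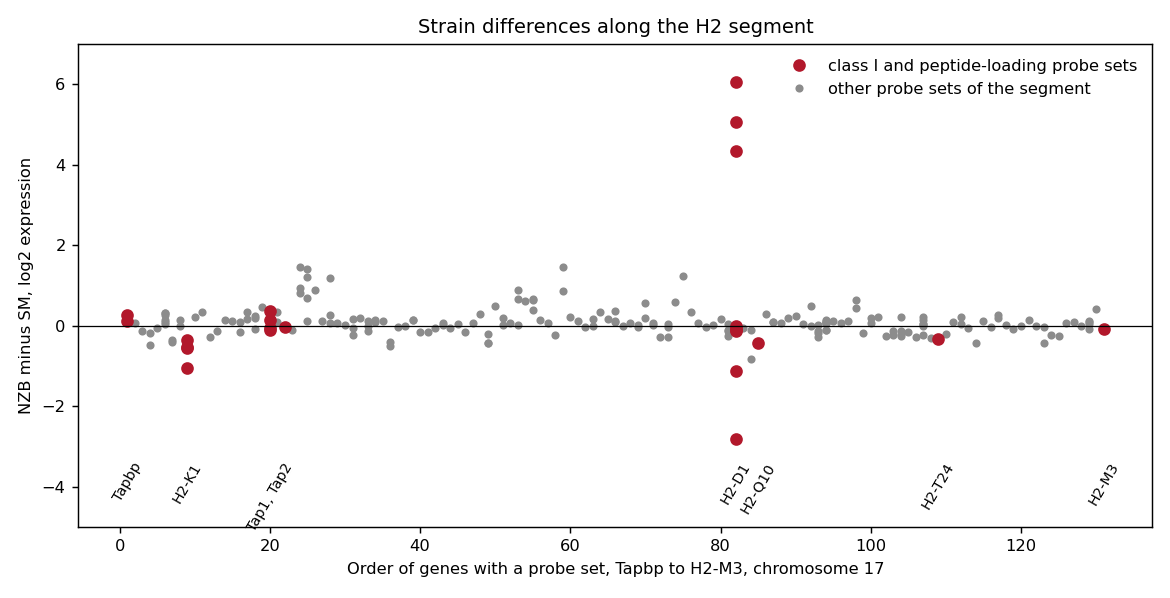
NZB minus SM difference in log2 expression (y axis) of the 223 probe sets of genes between Tapbp and H2-M3 on chromosome 17, by the order of the genes (x axis), with class I and peptide-loading probe sets as large red points and the others as small grey points. H2-D1 holds the 3 points above 4 and the point at -2.82.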

How the data were processed

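Liver RNA was measured on single-color arrays. Per the submitters' processing notes, the authors made the deposited log2 values with RMA, which corrects background, normalizes arrays and summarizes probes. Its version is not given in the sources used here, and the scale was taken as log2 because the highest value, 14.9, exceeds what natural logs of 16-bit readings can reach (11.1) but not what log2 can (16). All 6 columns were matched to mice, and 0 were left unmatched. No further normalization was applied.

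Probe sets were paired with genes through the platform's annotation, with symbols updated by Entrez ID through RefSeq (GRCm38.p6), which 34741 of 34945 single-gene probe sets matched. Strains were set against each other in R 4.3.3 by limma 3.58.1 (two-sided, lmFit followed by eBayes) over all 45037 probe sets, with Benjamini-Hochberg adjustment and a threshold of 0.05. The procedure was tested on simulated data. Every class I and peptide-loading probe set is named. For each pathway list, up to 2 genes per direction with the largest called differences are named, and others completing a count of 5 or fewer were chosen after their values were seen. Markers of hepatocytes, Kupffer cells, plasma cells and stellate cells were also named after their values were seen. The genes and lists were chosen with earlier results of these data known. Same-numbered mice of the strains did not deviate together (r across probe sets -0.055 to 0.037).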

Additional observations from a re-analysis of the deposited data

How the results depend on the processing

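Every alternative planned for the comparison was run. The calls of the other 11 class I and peptide-loading probe sets called as deposited, all but those of H2-T24 and Tapbp, kept their direction and their side of the threshold in every setting that included them. Over all 321 recomputed probe set differences, 297 kept both, 14 lost the call (5 for H2-T24 and 9 for Tapbp) and 10 changed sign without being called. Leaving out 1 array gave 4 to 5 higher and 7 to 8 lower probe sets, a median difference of -0.083 to -0.021, and 3741 to 6386 called probe sets over the whole table (4117 without SM replicate 2, 4413 without NZB replicate 2 and 3741 without NZB replicate 3). The fitted range of differences within a gene was then 8.72 to 8.97 for H2-D1, 0.57 to 0.82 for H2-K1, 0.37 to 0.54 for Tap1, 0.055 to 0.22 for Tapbp and 0.027 to 0.052 for B2m. With 1 probe set per gene, by construction fewer, 1 was higher and 3 were lower. Without probe sets marked for cross-hybridization 1 was higher and 3 were lower, and the range for H2-D1 was 2.69 as fitted and at least 2.21 against background, since 7 of its 9 probe sets and all 4 of H2-K1 were left out. The call of H2-Q5 1430802_at, added after its values were seen, held in every setting. The replicate block, with numbers that do not pair the mice, gave 4 higher and 8 lower probe sets and 6006 called over the table, the call of Tapbp 1450378_at ending (limma adjusted p = 0.0593). That call also ended with array medians aligned (0.0712), with array weights (0.0621) and without marked probe sets (0.0505). Sign changes were small. B2m 1449289_a_at differed by -0.0011 with medians aligned and by -0.012 to 0.077 without 1 array. H2-D1 1425545_x_at differed by -0.088 to 0.010 without 1 array, and 1450170_x_at by -0.22 to 0.034. H2-D1 1451784_x_at differed by -0.030 with medians aligned, and by -0.021 to 0.037 without 1 array. Tap2 differed by 0.037 after quantile normalization. The causes of these changes were not tested. Readings near background (H2-T24 and 3 of the Tap1 probe sets) limit what can be detected.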

Other observations

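A called difference of at least 2-fold, in either direction, was read by 1.25% of all probe sets. Of the 200 probe sets of the H2 segment outside the 10 listed genes, 6 had one. These 6 were all higher in NZB and came from neither class I nor peptide-loading genes. They were 1451721_a_at of the class II gene H2-Ab1 (1.45, SE 0.24, limma adjusted p = 0.0048), 1435290_x_at and 1452431_s_at of H2-Aa (1.41 and 1.20), 1422892_s_at of H2-Ea (1.19), 1425548_a_at of Lst1, a gene of leukocytes (1.22, SE 0.059, limma adjusted p = 4.7e-06), and 1417821_at of D17H6S56E-5, under background in SM mice and therefore at least 2.13-fold higher in NZB mice (limma adjusted p = 0.0074). These genes were chosen after their values were seen. Of 8 measured class I-like genes outside the H2 segment, 1 was called, where 18.3% of all genes were called through their brightest probe set. It was Procr (0.28, SE 0.069, limma adjusted p = 0.028). Its call ended without any array but SM replicate 1 (0.0628 to 0.0985), with the replicate block (0.0530), with medians aligned (0.0583) and after quantile normalization (0.0615). Those not called were Hfe, the regulator of iron uptake (0.35, limma adjusted p = 0.0515), Fcgrt, the neonatal Fc receptor (-0.29, limma adjusted p = 0.0507), Cd1d1, Cd1d2, Mr1, Azgp1 and Ulbp1. Hfe and Fcgrt thus narrowly did not pass. With array weights, with trended and robust variances, without dim probe sets or without SM replicate 1, 2 genes of this list were higher and 1 was lower. The same counts were read with 1 probe set per gene. With medians aligned none was higher and 1 was lower, and without marked probe sets none was higher. Leaving out 1 array gave 0 to 2 higher genes and 0 to 1 lower.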
